A study of Mus musculus with 9 samples.

Results

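The comparison described here is that of fasted p21KO livers with fasted WT livers. It is read on 188 of the 23746 rows in the expression table, those with high values in all 4 fasted libraries that were similar within each genotype. Liver RNA of single mice was sequenced, and the authors deposited FPKM, the number of fragments scaled to the length of the transcript and to the size of the library. The study has 9 libraries: 3 from WT mice fed ad libitum, 2 from WT mice fasted for 24 h, 2 from fed p21KO mice and 2 from fasted p21KO mice. The labels give all mice the C57Bl/6 background, and the methods of the study name them as males 10 to 16 weeks of age. The p21KO mice are knockouts of p21, encoded by Cdkn1a (the allele is not given in the sources used here), and besides genotype only diet separates the groups. The columns of the table keep row orders of their own, so a value can stand on the row of another gene. A row was therefore used only where all 4 fasted columns held at least 50 FPKM and where the highest value was at most 2 times the lowest within each genotype. The name of such a row is taken as its gene below. The filter does not detect columns that stand on a wrong row together, so a name can still be wrong. The genes were thus selected on their fasted FPKM values, so these values are a description below and carry no test.

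The product of Cdkn1a inhibits cyclin-dependent kinases and is best known for stopping the cell cycle. The fasted liver turns from making fat to burning it, under the nuclear receptor PPARα, and releases glucose and ketone bodies. It also secretes most plasma proteins, among them the acute phase proteins, whose genes answer to the cytokine interleukin-6 through the factor STAT3, and hepcidin, the hormone that limits iron uptake.

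Of 210 rows at 50 FPKM or more in all 4 fasted columns, 188 met the limit on spread and 22 did not. When a single column was moved by 3000 rows, the same filter kept 2 to 5 rows, with a mean of 3.75 over the 4 columns, so that the highest of these counts equals 2.66% of the genes kept. When both p21KO columns were moved together, 7 rows passed, and 3 of them were higher and 3 lower in p21KO by 1.5 times or more without overlap. None of the 1467 rows named for olfactory or vomeronasal receptors, which liver does not use, was among the 188. A row counted as agreeing where all 4 columns lay on the same side of 1 FPKM. Among the 10 rows nearest to each gene kept, a median of 70% agreed, against 50% around all rows tested. Nearest to the minimum, Bcap31 was kept with a lowest value of 51.0 FPKM and Lgals8 was left out with 49.98 FPKM. Nearest to the limit on spread, Ces3a and Scd1 were each kept with a highest-to-lowest ratio of 1.98, and Nnmt was left out with 2.14. Hamp lay close to this limit too, with 341.6 and 173.8 FPKM in the WT mice.

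The row of Cdkn1a itself was not kept. It held 0 and 0.0704 FPKM in the WT mice and 0.0919 and 2.27 FPKM in the p21KO mice, so that at this level, and with the order of the rows uncertain, it does not check the genotype label. The tissue could be read more clearly. The 10 rows of the highest mean FPKM were 5 major urinary protein genes (Mup12, Mup9, Mup20, Mup13 and Mup3), Gm2083, a name that RefSeq gives as another name of Mup13,, the α1-antitrypsin genes Serpina1b and Serpina1e, Trf (transferrin) and Fabp1 (the liver fatty acid binding protein), all products of hepatocytes. Pck1 was the only gene kept of 10 hepatocyte markers, and the row of Alb (albumin) held 0.0688, 12.3, 14.7 and 0 FPKM. None of 55 rows named for markers of other cell types was kept. The summed levels on these rows shared no direction. Kupffer cell or macrophage rows summed to 95.5 and 113.6 FPKM in WT and 56.0 and 73.1 FPKM in p21KO. Bile duct and adipocyte rows were also lower in both p21KO mice. Endothelial rows were higher, at 9.51 and 8.21 against 105.1 and 32.2 FPKM, as were red blood cell rows, at 41.4 and 77.4 against 533.4 and 80.02 FPKM. Leukocyte rows overlapped, at 16.4 and 1.95 FPKM in WT and 102.15 and 2.08 FPKM in p21KO. These rows did not pass the filter, and the part of other cell types in the results was not tested. In whole liver, fewer cells of a type and less RNA per cell cannot be told apart.

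Most of the 188 genes lay close to the WT level. The log2 ratio of the p21KO mean to the WT mean had a median of −0.07, against −0.10 over the 12721 rows with a mean of at least 1 FPKM, with quartiles of −0.25 and 0.05 and extremes of −1.10 and 2.05. Of the 188, 134 lay within 1.2-fold of WT either way. Both p21KO mice lay above both WT mice for 16 genes (background over all rows tested, 12.2%) and below both for 55 (background, 21.8%), and the genotypes overlapped for 117. Leaving out any of the 4 mice left groups of 1, and the count without overlap then rose from 71 to between 112 and 147. With a ratio of at least 1.5 as well, 3 genes were higher in p21KO (background, 9.96%) and 7 were lower (background, 16.4%). The higher genes were Hamp, Eif4ebp3 and Glo1, and the lower ones were Scd1, Gstm1, Orm1, Itih4, Mup9, Lrg1 and Crot. With a limit on spread of 1.5 within each genotype, 0 genes were higher and 6 lower past this ratio, and Scd1 was not kept. The background is of the same contrast that chose the genes and includes rows on which different genes stand side by side, so nothing is read from the difference.

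**Figure D1:**
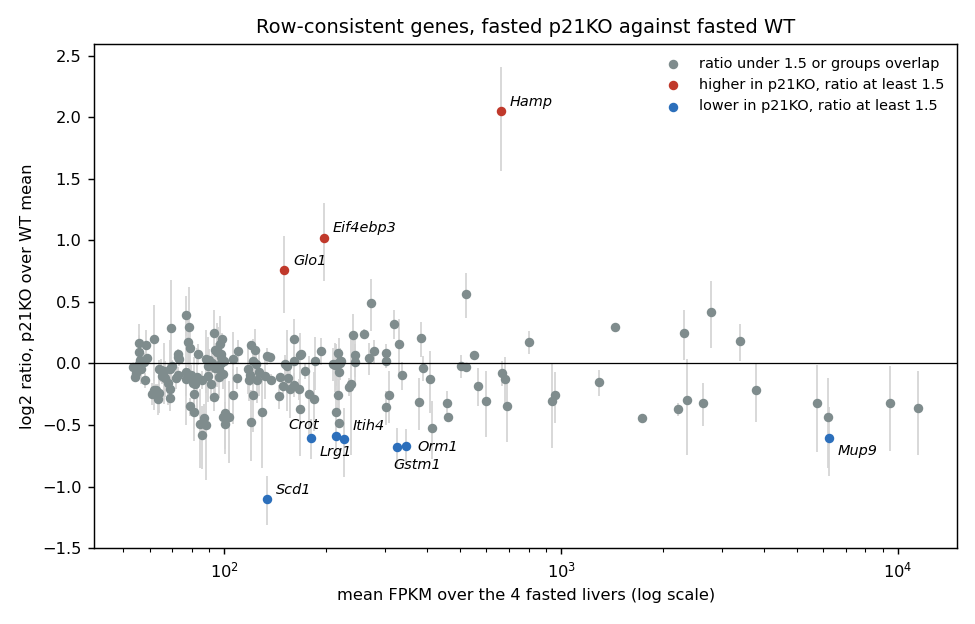
Log2 ratio of each fasted p21KO library to the fasted WT mean (grey bars span the 2 p21KO mice) and of the group means (points), against mean FPKM on a log axis, for the 188 genes kept. Hamp stands at 2.05 and Scd1 at −1.10, and most other points lie between −0.50 and 0.29, the 5th and 95th percentiles.

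The direction of the small differences depended on how the libraries were scaled. Without scaling, 77.5% of the 71 genes that did not overlap were lower in p21KO. With every column divided by its own sum the split was 61 higher and 23 lower (27.4% lower) and the median moved from −0.07 to 0.09, and with division by the median ratio of the 188 genes it was 34 higher and 35 lower (50.7% lower, median 0.01). The 10 genes past 1.5 kept their sign under both scalings. After division by sums, 5 genes (Hamp, Eif4ebp3, Glo1, Uox and Por) were past 1.5 upward and only Scd1 downward. The p21KO mice also differed more from each other than the WT mice did, with a median absolute log2 difference of 0.309 between p21KO replicates and 0.137 between WT replicates over the 210 rows, and without p21KO fasted replicate 2 the count past 1.5 was 31 (6 higher, 25 lower) instead of 10.

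Hamp encodes hepcidin, the liver hormone that blocks iron export into the blood. Its level was 341.6 and 173.8 FPKM in the fasted WT mice and 1368 and 763.4 FPKM in the fasted p21KO mice. The lower p21KO mouse thus stood above the higher WT mouse by more than the WT mice stood apart, but by less than the p21KO mice did. The ratio of means was 4.14 (258 ± 119 against 1066 ± 428 FPKM, SD, n = 2 each), the widest difference among the 188. The neighbouring gene Hamp2 is a close copy, and reads that the authors could not place between them make the value of Hamp uncertain. The gene lies on chr7:30942368-30944029 of GRCm38.p6 on the minus strand.

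The proximal Hamp promoter is known to receive signals from both bone morphogenetic proteins (BMP), which report iron stores, and STAT3. The 250 bases before the start are shown for Hamp and for Itih4, an acute phase gene that was lower in p21KO, because both hold a STAT motif and their levels lay on opposite sides of WT. They were taken from RefSeq on GRCm38.p6, at chr7:30944030-30944279 on the minus strand and chr14:30886226-30886475 on the plus strand. Capitals mark the STAT motif TTCNNNGAA in both and the BMP response element core GGCGCC in Hamp, each searched on both strands.
Hamp: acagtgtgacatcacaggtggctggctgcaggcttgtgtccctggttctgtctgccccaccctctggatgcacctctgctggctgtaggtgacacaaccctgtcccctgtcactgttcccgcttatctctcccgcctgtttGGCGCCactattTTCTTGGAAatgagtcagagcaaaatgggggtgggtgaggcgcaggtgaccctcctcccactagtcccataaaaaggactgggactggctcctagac
Itih4: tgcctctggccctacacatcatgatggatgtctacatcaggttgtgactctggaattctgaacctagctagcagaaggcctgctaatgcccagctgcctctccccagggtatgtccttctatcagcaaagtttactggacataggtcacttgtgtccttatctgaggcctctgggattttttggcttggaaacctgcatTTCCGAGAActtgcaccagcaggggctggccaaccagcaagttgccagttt
In Hamp the BMP core lay 109 to 104 bases and the STAT motif 97 to 89 bases before the start, and in Itih4 the STAT motif lay 51 to 43 bases before it. Of 32851 RefSeq promoters, 7.02% held the STAT letters and 9.59% the BMP letters. Of the 10 genes past 1.5, promoters were found for 7, and Glo1, Lrg1, Gstm1, Mup9 and Crot held neither run of letters in the window.

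Eif4ebp3 encodes a member of the 4E-BP family, which bind the cap-binding protein eIF4E and hold back translation. It was at 100.9 and 160.3 FPKM in WT and at 322.0 and 207.4 FPKM in p21KO, a ratio of 2.03 (131 ± 42.0 against 265 ± 81.0 FPKM). The genotypes did not overlap, although the WT mice differed by more than the gap between the nearest mice of the 2 genotypes. Glo1 encodes glyoxalase 1, which clears the glycolytic by-product methylglyoxal. Its level was 112.0 and 111.6 FPKM in WT and 148.4 and 229.7 FPKM in p21KO, a ratio of 1.69. The WT mice were almost equal and the p21KO mice were not, and without p21KO fasted replicate 2 the log2 ratio was 0.41 instead of 0.76. Around Eif4ebp3 and Glo1, 30% and 20% of the nearest rows agreed, less than the 70% usual for these genes.

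Uox (urate oxidase, which degrades uric acid) and Por (the reductase that gives electrons to cytochrome P450 enzymes) came next. Uox was at 439.5 and 401.4 FPKM in WT and 699.5 and 542.5 FPKM in p21KO, a ratio of 1.48, and Por at 221.5 and 233.0 against 365.8 and 272.1 FPKM, a ratio of 1.40. In both genes p21KO replicate 1 was the highest mouse. Tdo2 (tryptophan dioxygenase, the first step of tryptophan breakdown) was at 1272 and 1322 FPKM in WT and 1599 and 1582 FPKM in p21KO, a ratio of 1.23. The mice of each genotype lay close together, but only 20% of the rows around Tdo2 agreed. Krt18 (a keratin of hepatocytes), Ctsl (the lysosomal protease cathepsin L), Serpina1d (an α1-antitrypsin), Serpina3n (an acute phase protease inhibitor), Ddt (a tautomerase related to the cytokine MIF) and Mosc1 (a mitochondrial reductase) were also higher in both p21KO mice, with ratios from 1.31 for Krt18 down to 1.15 for Mosc1. In Mosc1 the gap was very small, with 150.4 FPKM in the higher WT mouse and 150.9 FPKM in the lower p21KO mouse.

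Among the lower genes, Scd1 had the smallest ratio. It encodes stearoyl-CoA desaturase, which makes monounsaturated fatty acids and is high when the liver builds fat. Its level was 242.4 and 122.4 FPKM in WT and 96.8 and 73.4 FPKM in p21KO, a ratio of 0.466 (182 ± 84.9 against 85.1 ± 16.5 FPKM). WT fasted replicate 1 held much of this difference, since without it the log2 ratio was −0.52 instead of −1.10. Crot and Decr2, both of peroxisomal fat metabolism, were lower as well. The list of fatty acid oxidation genes described further on holds neither of them, and most of its genes overlapped. Crot, the peroxisomal carnitine octanoyltransferase, was at 257.9 and 257.1 FPKM in WT and 167.8 and 174.0 FPKM in p21KO, a ratio of 0.664 with little spread in either genotype. Decr2, a peroxisomal reductase for unsaturated fatty acids, was at 113.0 and 121.5 against 94.1 and 72.6 FPKM, a ratio of 0.711. Only 40% of the rows around Decr2 agreed.

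Of the acute phase genes, Orm1, Itih4, Lrg1 and Hp were lower in both p21KO mice. Orm1 encodes orosomucoid and was at 448.8 and 401.9 FPKM in WT and 293.6 and 241.8 FPKM in p21KO, a ratio of 0.629. Itih4, an inter-α-trypsin inhibitor heavy chain on chr14:30886476-30901986, was at 299.0 and 248.7 against 144.2 and 213.4 FPKM, a ratio of 0.653. Lrg1, a secreted leucine-rich glycoprotein, was at 244.1 and 192.0 against 127.0 and 159.3 FPKM, a ratio of 0.657, but only 40% of the rows around it agreed. The gap between the nearest mice of the genotypes was wider than the spread within either genotype in Orm1 but not in Itih4, where the p21KO mice differed by more than this gap. Hp, haptoglobin, which binds free haemoglobin, was tighter, at 2003 and 1999 FPKM in WT and 1451 and 1493 FPKM in p21KO, a ratio of 0.735. Serpina3n, an acute phase gene too, was at 253.9 and 222.4 FPKM in WT and 272.7 and 289.4 FPKM in p21KO and so lay on the other side.

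Gstm1, a glutathione S-transferase that conjugates foreign compounds, was at 402.7 and 399.7 FPKM in WT and 223.1 and 278.6 FPKM in p21KO, a ratio of 0.625. It has close paralogs beside it, and 40% of the rows around it agreed. Mup9, a major urinary protein that carries pheromones, was at 7145 and 7892 FPKM in WT and 3979 and 5880 FPKM in p21KO, a ratio of 0.656. The Mup genes are near-identical copies that share reads, so the level of any single copy is uncertain. Mbl2 (a mannose-binding lectin), Slc10a1 (the bile acid importer NTCP), Khk (fructokinase) and Cyp4v3 (a fatty acid hydroxylase) were lower in both p21KO mice with ratios between 0.669 and 0.710. Slc10a1, the most abundant of them, was at 498.5 and 478.1 FPKM in WT and 284.8 and 394.1 FPKM in p21KO. Around Mbl2, only 20% of the rows agreed.

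**Figure D2:**
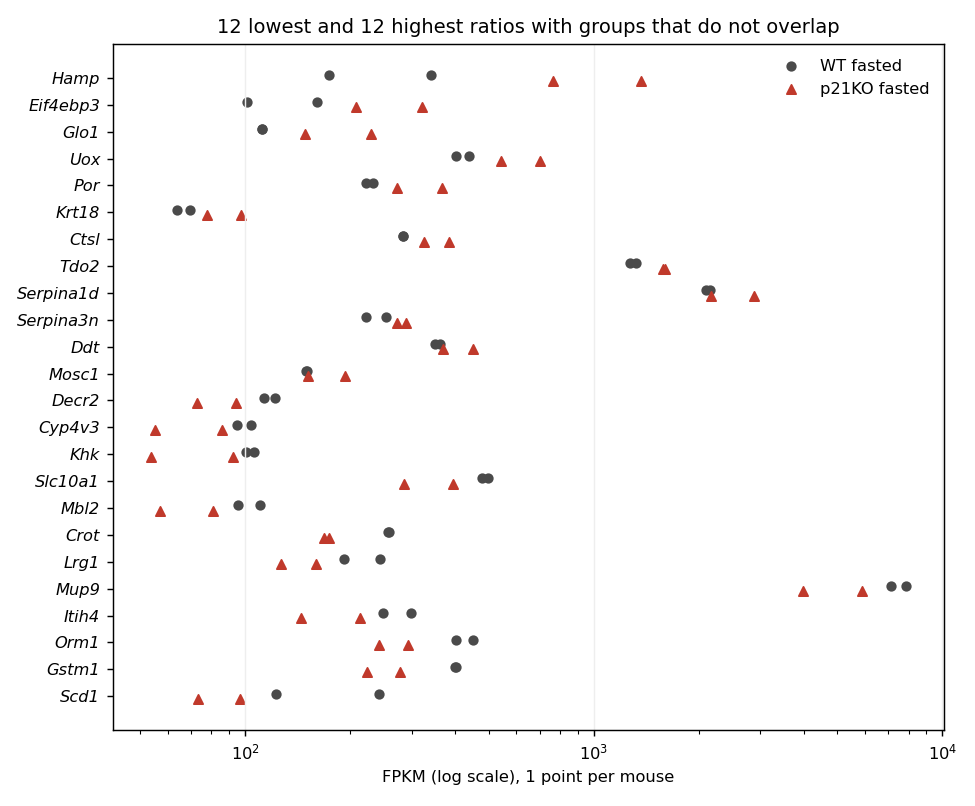
FPKM on a log axis in each fasted mouse (circles, WT; triangles, p21KO) for the 12 genes with the highest and the 12 with the lowest ratio among those whose genotypes did not overlap. The points of Hamp, Crot and Gstm1 are well apart, while those of Mosc1 nearly meet at 150.4 and 150.9 FPKM.

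By gene list, the glutathione and antioxidant genes had 6 of 39 rows kept, 0 higher and 5 lower in both p21KO mice (background over all rows tested, 12.2% and 21.8%, here and for the lists that follow), with a median log2 ratio of −0.33 (all 188 genes, −0.07). Mgst1, a membrane glutathione transferase, was the most abundant and lay at 2501 and 2512 FPKM in WT and 1865 and 2002 FPKM in p21KO. Cat (catalase) and Gpx1 (glutathione peroxidase), which remove peroxides, lay between 645.5 and 793.0 FPKM in WT, and p21KO replicate 1 was the low mouse in both, at 496.8 and 437.2 FPKM. Prdx5 (a peroxiredoxin) was lower by little, and after division by sums the list had 1 higher and 2 lower of its 6 genes. The major urinary proteins had 7 of 23 rows kept with a median of −0.32, and all 7 ratios were under 1. Only Mup9 was without overlap, and in the others p21KO replicate 2 reached the WT range, as in Mup12 with 9737 and 11367 FPKM in WT and 6439 and 10422 FPKM in p21KO.

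The PPARα targets and fatty acid oxidation genes had 8 of 43 rows kept, 0 higher and 3 lower, with a median of −0.13. Fabp1 was at 2518 and 2709 FPKM in WT and 2683 and 1560 FPKM in p21KO, so that only replicate 2 was low. Slc27a2 (a very long chain acyl-CoA synthetase and transporter) overlapped at 676.9 and 834.1 against 905.9 and 794.6 FPKM. Etfdh, Hsd17b4 and Slc25a20, which serve electron transfer, peroxisomal oxidation and carnitine transport, were lower with ratios of 0.865, 0.839 and 0.843, and after division by sums the list had 2 higher and 0 lower. None of the 12 PPARα, lipid, stress and immune cell genes that the study names was kept, so their values cannot be given by name here. Of 5 ketone body genes none was kept, and of 13 gluconeogenesis genes Pck1, the rate-limiting enzyme, alone was kept, at 1327 and 1393 FPKM in WT and 1309 and 1134 FPKM in p21KO, without overlap but with a ratio of only 0.898.

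The secreted plasma and acute phase proteins had 11 of 41 rows kept, 2 higher and 4 lower, with a median of −0.10. After division by sums this list had 5 higher and 3 lower, with a median of 0.07. Trf was at 3041 and 2803 FPKM in WT and 2059 and 2623 FPKM in p21KO. Serpina1b and Serpina1e were slightly to clearly higher on average in p21KO, with ratios of 1.13 and 1.34, but overlapped, and they too are close copies. Complement and coagulation had 9 of 34 rows kept, 1 higher (F12) and 4 lower (Mbl2, Cfb, Cfi and C3), with a median of −0.03. C3, the central complement protein, was at 1017 and 1072 FPKM in WT and 748.7 and 997.9 FPKM in p21KO, whereas the coagulation proteins Serpinc1 (antithrombin) and F2 (prothrombin) had ratios of 0.980 and 0.983. After division by sums the complement and coagulation list had 3 higher and 1 lower.

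Drug metabolism had 8 of 55 rows kept, 1 higher (Por) and 3 lower (Cyp4v3, Fmo1 and Ugt1a1), with a median of −0.15. Its split was 3 higher and 2 lower after division by sums, with a median of 0.01. Ephx2, the soluble epoxide hydrolase, overlapped at 507.1 and 568.7 against 562.6 and 563.3 FPKM. Of 29 immune and antigen presentation rows, the 2 kept were H2-K1 and H2-Q10, class I histocompatibility genes of a family with close copies, and both were lower. H2-K1 was at 555.0 and 503.7 FPKM in WT and 396.9 and 384.3 FPKM in p21KO, and H2-Q10 at 528.5 and 491.1 against 377.4 and 436.8 FPKM. These 2 genes stayed lower in both p21KO mice under both scalings.

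Without scaling, housekeeping lists lay near the WT level. The cytosolic ribosomal proteins had 20 of 87 rows kept, 1 higher (Rpsa) and 2 lower (Rps27l and Rpl29), with a median of 0.02. The most abundant, Rpl10, was at 290.3 and 310.7 FPKM in WT and 315.3 and 292.8 FPKM in p21KO. The respiratory chain had 13 of 76 rows kept, 3 of them lower (Cox7b, Sdhd and Sdhc), with a median of −0.04, and the proteasome had 5 of 37, all overlapping, with a median of 0.09. Of endoplasmic reticulum chaperones 3 of 31 were kept, and P4hb (protein disulphide isomerase) was lower with a ratio of 0.804. Amino acid catabolism had 5 of 39 rows kept, with Tdo2 higher and Oat (ornithine aminotransferase), Haao, Uroc1 and Bckdha overlapping. Of the 15 rows in the list of apolipoproteins, which leaves out Apon, Apoc4 alone was kept and overlapped, and Scd1 was the single gene of 21 in fatty acid and sterol synthesis. None of 8 urea cycle, 17 cell cycle inhibitor and p53 target, and 26 clock and fasting hormone rows was kept.

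**Figure D3:**
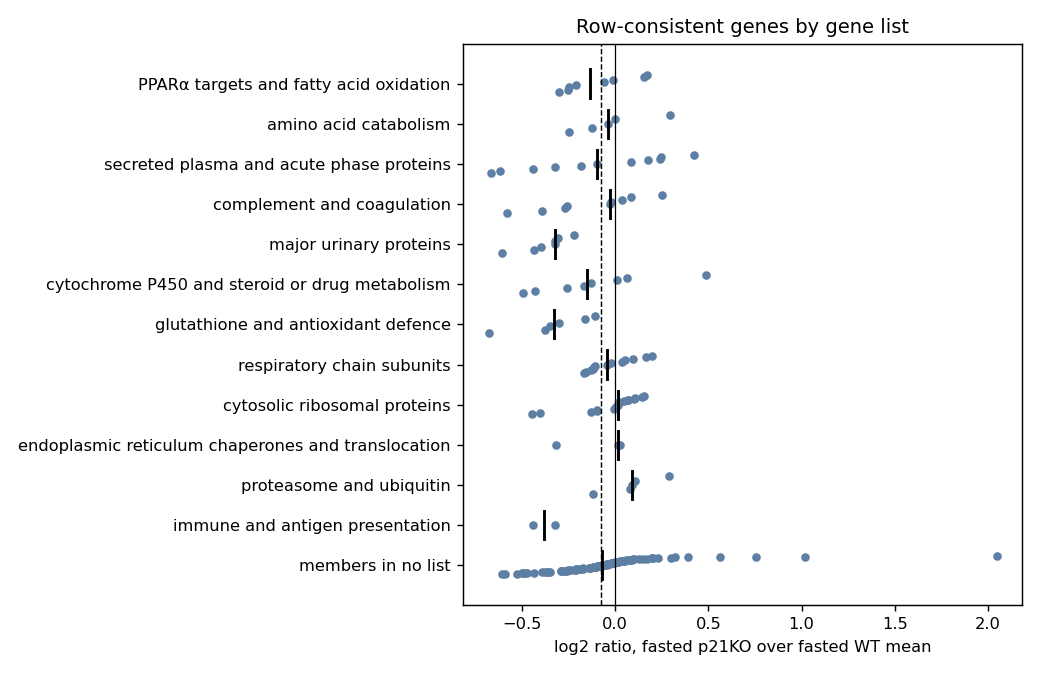
Log2 ratio of fasted p21KO to fasted WT means for each gene kept, by list with at least 2 genes (black tick, median of the list; dashed line, median of all 188 genes at −0.07). The antioxidant and major urinary protein lists have medians of −0.33 and −0.32, and the ribosomal and proteasome lists of 0.02 and 0.09.

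Position on the chromosome was examined because Cdkn1a lies on chr17:29090979-29100722 of GRCm38. Chromosome 17 held 11 of the 188 genes, 1 higher and 7 lower without overlap (background over all rows tested, 12.2% and 21.8%; all 188 genes, 16 and 55), with a median of −0.27. After division by sums, 2 of the 11 were higher and 4 lower with a median of −0.10, and after division by the median ratio 2 were higher and 6 lower. Within 10 Mb of Cdkn1a there were 8. Of these, Glo1 lay 1.5 Mb beyond its start and was higher. Hagh (another enzyme of methylglyoxal clearance) and Decr2 lay 4.25 and 3.01 Mb before the start, and H2-K1, Cfb and H2-Q10 lay 4.91, 5.77 and 6.38 Mb beyond it, and all 5 were lower, while Rps2 and Ndufb10 overlapped. After division by sums Hagh and Cfb overlapped too. The disrupted locus, the DNA around it and the genotype cannot be told apart in this design.

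The fed mice were not used to choose the genes, and there p21KO was tested against WT with limma on log2(FPKM + 1) over all rows with a mean of at least 1 FPKM, with 3 WT and 2 p21KO mice. It called 75 of 13351 rows (0.562%) at an adjusted p under 0.05, and 4 of the 187 genes kept that were tested. These 4 were C3, Etfb, Cfb and Ctsl, and in each the fed genotypes differed by rows that were nearly empty on one side. C3 held 0.601, 0.669 and 0.880 FPKM in fed WT and 1043 and 851.7 FPKM in fed p21KO (limma adjusted p = 0.0214), and fed WT values of 1695, 1250 and 1597 FPKM stood 2 to 4 rows after it, on rows named Efna5 and Fert2. Cfb (adjusted p = 0.0449) and Ctsl (adjusted p = 0.0455) showed the same form, and Etfb (adjusted p = 0.0214) the opposite, with 157.6 to 171.3 FPKM in fed WT and 0.234 and 0.0759 FPKM in fed p21KO. Which gene the values on these rows belong to was not tested. At an unadjusted p under 0.05 there were 6 of the genes kept (3.21%), against 4.19% of all rows, 3 higher and 3 lower. The count of 75 rows fell to 0 without p21KO fed replicate 2, WT fed replicate 1 or WT fed replicate 3 and rose to 738 without p21KO fed replicate 1.

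Of the genes past 1.5 in the fasted livers, 2 had fed values of at least 50 FPKM on their own row in all 5 mice. Orm1 was at 1839, 710.3 and 1169 FPKM in fed WT and 419.3 and 488.9 FPKM in fed p21KO, a log2 difference of −1.34 in limma (SE 0.465, unadjusted p = 0.0420, adjusted p = 0.867). Itih4 was at 1082, 510.3 and 696.9 FPKM in fed WT and 378.8 and 383.3 FPKM in fed p21KO, with a log2 difference of −0.93 (SE 0.383, unadjusted p = 0.0687, adjusted p = 0.867). Neither passed the threshold, although all fed p21KO mice lay below all fed WT mice in both genes, as they did in the fasted livers.

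Other genes had fed rows at odds within a group. Lrg1 was at 344.8, 8.40 and 298.1 FPKM in fed WT and 84.1 and 115.9 FPKM in fed p21KO, and the second WT library held 141.9 FPKM on the next row. Glo1 was listed near 0 in WT fed replicate 1, with 156.5 FPKM standing 2 rows further, at 142.8 and 144.2 FPKM in the other fed WT mice, and at 449.4 and 326.5 FPKM in fed p21KO. In limma on the rows as they stand, Lrg1 had an unadjusted p of 0.996 and Glo1 of 0.218. With values under 20 FPKM left out and no test, the fed ratio was 0.311 for Lrg1 and 2.70 for Glo1 with 2 mice in each genotype, on the same side as in the fasted livers. It was 1.36 for Mup9 and 1.44 for Crot, but with a single p21KO mouse each, so no direction is read for them. Mup9 was at 6086, 4826 and 10112 FPKM in fed WT and at 9528 and 0 FPKM in fed p21KO, and 9528 FPKM lies within the WT range. Hamp was at 547.7, 1241 and 412.8 FPKM in fed WT and at 3.15 and 1042 FPKM in fed p21KO, with 962.0 FPKM on the row after it in the first p21KO library, so that the p21KO mice were on both sides of the lowest WT value and the fed genotypes overlapped. Whether the value on that row belongs to Hamp was not tested. Hp was at 3807, 1768 and 2125 FPKM in fed WT and 822.2 and 1.96 FPKM in fed p21KO.

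Scd1 and Gstm1 could not be read in the fed livers. Scd1 held 3.20 to 4.15 FPKM in all 5 fed libraries, while values from 550.6 to 1034 FPKM stood 1 to 7 rows after it. Gstm1 held 1.52 to 28.6 FPKM, while values from 536.6 to 745.9 FPKM stood 1 to 5 rows after it, and these overlapped between the genotypes. Eif4ebp3 had no fed value above 29.4 FPKM, and none above 57.9 FPKM stood within 10 rows of it. The fed values of Crot were 51.8, 102.9 and 67.5 FPKM in WT and 106.8 and 0.482 FPKM in p21KO. The row after it held 110.9 and 183.6 FPKM in WT fed replicates 1 and 3. The row before it held 118.7 FPKM in p21KO fed replicate 2. Which of these values belong to Crot was not tested.

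**Figure D4:**
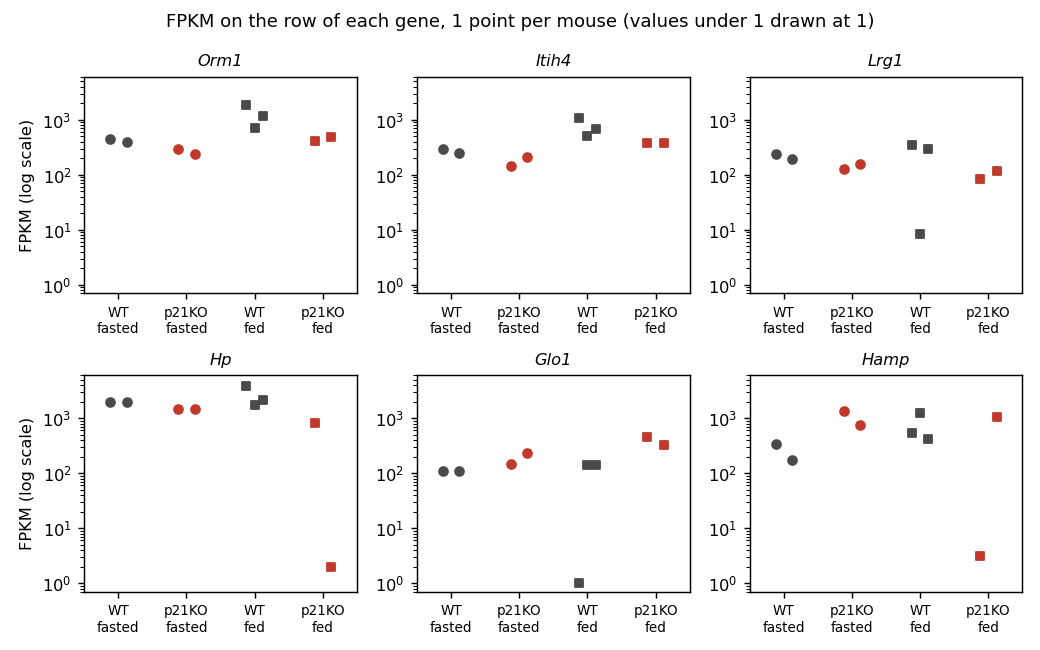
FPKM on a log axis on the rows of Orm1, Itih4, Lrg1, Hp, Glo1 and Hamp in all 9 mice (grey, WT; red, p21KO; circles, fasted; squares, fed), with values under 1 drawn at 1. Single fed points near the bottom in Lrg1, Hp, Glo1 and Hamp are the rows on which the value of another gene may stand, and Orm1 and Itih4 show all p21KO mice below the WT mice of the same diet.

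Only 73 of the 188 genes held at least 50 FPKM in all 5 fed mice, and 62 had a fed value under 1. The 63 that also met the limit on spread in both fed groups had a median fed log2 ratio of −0.08 and a fasted one of −0.04, and all 188 had a fed median of −0.08 against −0.10 over all rows tested. Among the 63, 5 were higher (background over all fed rows tested, 7.89%) and 16 lower (background, 14%) without overlap in fed p21KO. The 63 were chosen on these same fed values, and the background includes rows on which different genes stand side by side. Nothing is therefore read from the difference. Apon (apolipoprotein N) had the lowest fed ratio, at 144.5, 112.1 and 136.9 FPKM in fed WT and 94.5 and 81.7 FPKM in fed p21KO, and it was lower in the fasted mice too, at 138.4 and 141.4 against 81.0 and 120.3 FPKM. Decr2 was likewise lower in both diets, with fed values of 80.2, 85.9 and 91.6 FPKM in WT and 71.7 and 63.7 FPKM in p21KO. Mup21 had the highest fed ratio, at 306.5, 233.2 and 200.3 FPKM in fed WT and 460.7 and 333.4 FPKM in fed p21KO, while in the fasted livers it overlapped at 131.9 and 161.2 against 81.5 and 141.2 FPKM.

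Sums and sorted values of the columns need no gene names. The fasted WT columns summed to 401817 and 400024 FPKM and the fasted p21KO columns to 349965 and 364309 FPKM, a ratio of 0.891. Both p21KO columns were lower, but an exact two-sided permutation test with 2 against 2 mice cannot go below its p of 0.333. Much of the gap came from the very top. The highest value was 26245.5 and 29662 FPKM in fasted WT and 8367 and 12343 FPKM in fasted p21KO, and without it the sums had a ratio of 0.930, and without the 10 highest values 0.959. The highest WT values stood on rows named Antxr2 and Tmem150c, which are no major liver products, and those of p21KO on rows named Apoa1 and Gm2083. In the fed livers the highest value lay between 18703 and 29113 FPKM in all 5 mice, both p21KO mice included.

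Further down the columns drew together. At rank 5 both p21KO values were still lower, at 5504 and 6553 FPKM against 7145 and 7501 FPKM in WT. At rank 50 the genotypes overlapped, at 1129 and 1027 FPKM in WT and 1059 and 1113 FPKM in p21KO. Rows of at least 1000 FPKM numbered 54 and 52 in WT and 55 and 52 in p21KO, and rows of at least 1 FPKM 10051 and 9919 against 9584 and 9665. At rank 1000 the p21KO values were a little lower again, at 40.3 and 40.9 FPKM against 45.6 and 43.1 FPKM. The 188 genes made up 25.2% and 25.6% of the sum in WT and 22.6% and 26.9% in p21KO.

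**Figure D5:**
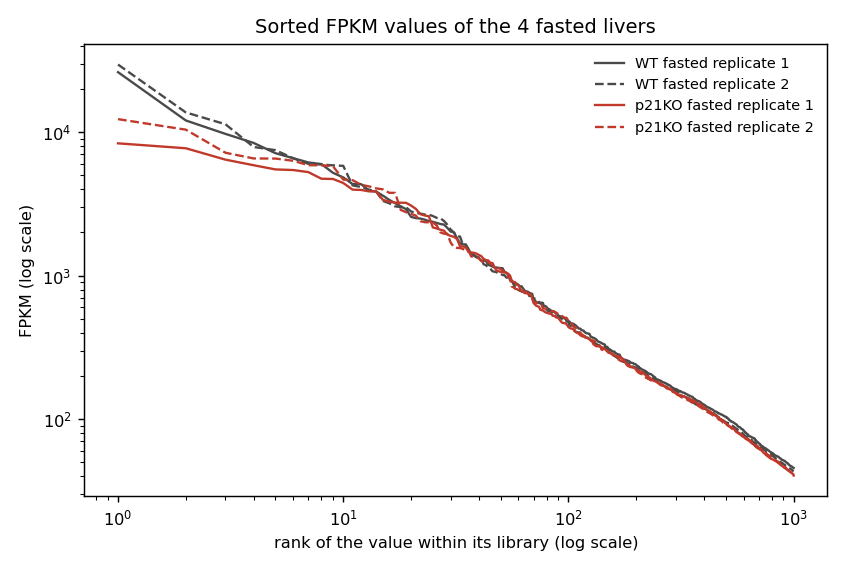
FPKM of the 1000 highest values of each fasted library against their rank, both on log axes (grey, WT; red, p21KO; solid, replicate 1; dashed, replicate 2). The curves part at rank 1, with 26245.5 and 29662 FPKM in WT and 8367 and 12343 FPKM in p21KO, and run close together from rank 50 on.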

How the data were processed

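Liver RNA of 9 mice was sequenced in 4 groups taken from the labels. The authors deposited 1 table of FPKM values, 1 column per mouse, made from single 50-base reads on GRCm38/mm10. Reads were aligned with TopHat (2.0.10 in the study's methods, 2.0.4 in the notes on processing from the submitters) over Bowtie (1.0.0 and 0.12.7, in the same order) with SAMtools (0.1.19 and 0.1.16). Levels came from Cufflinks, version 2.2.1 in both sources, with 1.3.0 also in the notes. For the library the labels give a stranded poly(A) kit and the methods a low-input amplification kit. For the strain the methods add the substrain C57BL6J/Ola.Hsd. No scaling between libraries is stated. FPKM values hold no read counts, which leaves the depth unknown and allows no interval for counting error. Reads of near-identical genes can be split between copies.

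The rows follow different orders in different columns, so genes were kept only at 50 FPKM or more in all 4 fasted columns with a highest-to-lowest ratio of at most 2 within each genotype. Moving columns by 3000 rows gave the chance level. It does not detect columns displaced together by a few rows. The genes and the 19 gene lists were chosen with earlier results of these data known. The rule for genes named took the 12 highest and 12 lowest ratios without overlap, the 10 most abundant genes, up to 4 of the most abundant of each list, and those at the edges of the filter. Others, such as Hp, the lists' remaining genes, C3, Cfb and the genes lower near Cdkn1a, were named after their values were seen.

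Fed groups were compared with limma 3.58.1 (R 4.3.3) on log2(FPKM + 1) with a variance trend and Benjamini-Hochberg adjustment. A fold change on this scale understates low genes. The fit was tried on simulated data with the same spread in every row and no misplaced rows. That trial therefore does not cover the misplaced rows of the real table. The study used Cufflinks on reads, which FPKM values do not allow. Sums were compared by an exact permutation test (SciPy 1.17.1). Whether mice of 1 group came from separate litters is not given, so p-values measure the spread between these samples only. All values are means ± SD where an error is given. The differences between replicates 1 and 2 of fasted WT and of fasted p21KO had a correlation of −0.10 over the 188 genes. The filter limits these differences, so this value cannot show whether mice of the same replicate number were paired, which was not tested. Alternatives were other minimums, limits, scalings, pseudocounts and filters, a replicate block and leaving out single libraries. Promoters came from RefSeq (GRCm38.p6), and all 188 names matched RefSeq, as 187 distinct genes.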

Additional observations from a re-analysis of the deposited data

Results flagged for a closer look

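Among the 63 genes steady in both diets, 2 differed in direction between the diets in every mouse before scaling. Cat (catalase) was at 750.8 and 793.0 FPKM in fasted WT and 496.8 and 715.4 FPKM in fasted p21KO, but at 736.0, 764.1 and 803.2 FPKM in fed WT and 938.1 and 817.1 FPKM in fed p21KO, so that its log2 ratio was 0.54 higher in the fed than in the fasted mice. Once the fasted columns were divided by their sums, the fasted genotypes of Cat overlapped. The fed genotypes of Cat overlap too when divided by theirs. The sum was 440780 FPKM in p21KO fed replicate 2 and 391437 FPKM in WT fed replicate 2. Mosc1 was higher in fasted p21KO by a small gap and lower in fed p21KO, at 136.8, 128.5 and 123.0 FPKM in fed WT and 121.3 and 102.2 FPKM in fed p21KO, and its log2 ratio differed by −0.41 between fed and fasted mice. The difference between the diets was not tested for either gene.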

How the results depend on the processing

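The number of genes kept was 188, 442 at a minimum of 20 FPKM, 103 at 100 FPKM, and between 225 and 301 without each fasted library, 301 of them without WT fasted replicate 2. The chance level was 3.75 rows, and 7 with both p21KO columns moved. The count past 1.5 was 10, 71 at any ratio, 3 at a ratio of 2 (2 higher, 1 lower), 6 after division by sums (5 higher, 1 lower), 23 at a minimum of 20 FPKM (7 higher, 16 lower) and 6 at a limit on spread of 1.5 (0 higher, 6 lower). Without each fasted library it lay between 9 and 31, the latter without p21KO fasted replicate 2, and the count of 71 at any ratio lay between 112 and 147. With the replicate block, which joins mice of the same number, 11 genes were past 1.5. The 75 fed calls became 28 with a pseudocount of 0.1, 47 with 5, 0 with the replicate block (858 rows at an unadjusted p under 0.05 in limma), and 0 to 738 without each fed library. The median fed log2 ratio of −0.08 lay between −0.19 and 0.058, and reversed to 0.058 without p21KO fed replicate 2. The causes were not tested, except that fewer samples or a stricter filter change counts by construction. The sum of FPKM stayed lower in p21KO under every alternative run, with ratios from 0.873 to 0.909 without each fasted library. None of the 10 genes past 1.5 changed sign under the alternatives run for them.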
